A study of Mus musculus with 6 samples.

Results

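Chaperones of the endoplasmic reticulum (ER) and genes of the unfolded protein response were followed in mouse bone marrow-derived macrophages that were exposed to oxidised low-density lipoprotein (oxLDL) or left unexposed. The set was a fixed list of 35 gene symbols, chosen for function, and all 35 were among the 24054 genes of the deposited tables. All 35 also passed the filter on low counts, which left 11400 genes for testing. The 6 samples formed 2 groups of 3, each numbered 1 to 3. All came from wild-type C57BL/6 mice, and their marrow cells had been grown for 7 days in medium conditioned by L929 cells, a fibroblast line that secretes macrophage growth factor. The treated group then received oxLDL at 50 µg/ml for 24 hours and the other group received none. The labels do not say whether a number stands for an animal or a culture, nor what the word mix in every title means, so the p-values speak only to the spread among the 6 samples, and some of that spread may be technical.

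Proteins bound for the cell surface, lysosomes or secretion fold inside the ER, helped by chaperones, by lectins that read their sugar chains and by enzymes that form disulfide bonds. When unfolded proteins build up, the membrane sensors IRE1 (Ern1), PERK (Eif2ak3) and ATF6 (Atf6) start the unfolded protein response: IRE1 splices the Xbp1 message, ATF6 is cut to release a transcription factor, and PERK slows translation and favours that of Atf4. Their targets include the chaperones themselves and the machinery that returns misfolded proteins to the cytosol for destruction (ER-associated degradation). In macrophages, free cholesterol loading of the ER is a known trigger of this response.

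Promoter sequence was not used to choose the genes, but they include the chaperones named above as targets of the response. The shares of promoter matches below therefore describe the set and are not independent support. The ER stress element (ERSE) is read by ATF6 and XBP1 together with the factor NF-Y. It was searched as CCAAT followed after 9 bases by CCACG, on both strands, in the 250 bases before each RefSeq start of build GRCm38.p6. Of the 35 members, 30 had a promoter in the RefSeq table, 4 of them under a newer symbol, and 9 of these 30 genes (30%) held the element, against 0.13% of 27025 genes with a promoter in the table. They were Hspa5, Hsp90b1, Dnajc3, Calr, Canx, Pdia6, Creld2, Ero1lb and Syvn1. A second form, ERSE-II, searched as ATTGG followed after 1 base by CCACG, was found in 1 member, Herpud1, against 0.037% of the table. The XBP1-type core TGACGTGG was found in 0 of the 30 members searched, against 0.603% of the whole table. Matches overlapped one another in 0 member promoters. Hyou1, Hspa13, Manf, Atf6 and Derl1 were not searched. These are matches of letters, and no binding was measured here.

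Stretches upstream of 5 starts are shown, because these genes stand for the main patterns of the values below: 4 ERSE genes whose levels were highest in the libraries numbered 3, and Herpud1, which fell with oxLDL in every pair. Each is written 5′ to 3′ along the gene's own strand and lies before the annotated start, outside the transcript that begins there. Capitals mark the matched ends of ERSE or, in Herpud1, of ERSE-II. Hsp90b1 holds 2 matches.
Hspa5, chr2:34771840-34772089, plus strand: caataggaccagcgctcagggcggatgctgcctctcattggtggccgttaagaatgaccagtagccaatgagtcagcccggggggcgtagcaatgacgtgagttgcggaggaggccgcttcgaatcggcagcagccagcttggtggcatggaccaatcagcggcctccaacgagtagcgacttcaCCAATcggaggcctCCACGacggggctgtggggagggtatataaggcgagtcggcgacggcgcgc
Hsp90b1, chr10:86705445-86705694, minus strand: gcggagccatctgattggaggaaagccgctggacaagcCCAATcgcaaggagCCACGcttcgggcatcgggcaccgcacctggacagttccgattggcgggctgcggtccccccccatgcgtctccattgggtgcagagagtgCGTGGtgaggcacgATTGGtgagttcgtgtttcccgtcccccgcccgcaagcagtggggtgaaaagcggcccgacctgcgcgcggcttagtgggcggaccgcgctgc
Creld2, chr15:88819396-88819645, plus strand: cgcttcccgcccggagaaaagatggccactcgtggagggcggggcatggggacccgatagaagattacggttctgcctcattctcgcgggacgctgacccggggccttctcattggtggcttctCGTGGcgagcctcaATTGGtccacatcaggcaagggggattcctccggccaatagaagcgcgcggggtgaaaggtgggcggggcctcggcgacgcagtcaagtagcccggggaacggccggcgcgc
Calr, chr8:84846932-84847181, minus strand: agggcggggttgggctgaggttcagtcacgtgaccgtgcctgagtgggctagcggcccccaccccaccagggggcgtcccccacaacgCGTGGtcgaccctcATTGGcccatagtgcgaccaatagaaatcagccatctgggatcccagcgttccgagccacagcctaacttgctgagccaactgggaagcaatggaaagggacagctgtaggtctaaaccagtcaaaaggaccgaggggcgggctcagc
Herpud1, chr8:94386179-94386428, plus strand: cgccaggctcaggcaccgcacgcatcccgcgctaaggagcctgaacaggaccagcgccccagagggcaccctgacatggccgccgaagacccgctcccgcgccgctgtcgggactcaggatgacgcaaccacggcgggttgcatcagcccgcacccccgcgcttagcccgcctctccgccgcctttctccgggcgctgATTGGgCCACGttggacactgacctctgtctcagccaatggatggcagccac

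The libraries held between 13546572 and 15559310 expected counts, and levels are given as CPM, counts scaled to a common library size with TMM factors. The 2 libraries numbered 3 stood apart from the rest of their groups in these genes, so the counts below, and the members given by sample, are also reported without pair 3. In 28 of the 35 members (80%) the library numbered 3 was the highest of its group in both groups, against 29.9% of all genes tested. The library numbered 1 was highest in both groups for 1 member and the library numbered 2 for 0, against 15.6% and 8.23% of all genes. Untreated sample 3 lay more than 2-fold above the mean of untreated samples 1 and 2 in 22 members, against 11% of all genes tested. The median over the members was 2.64-fold in untreated cells and 1.48-fold in oxLDL-treated cells, where the medians over all genes were 0.999 and 0.992. In 32 of 35 members this ratio of sample 3 to the mean of samples 1 and 2 was lower with oxLDL, against 50.9% of all genes. A lower ratio was not always a smaller gap. From untreated to oxLDL-treated samples it went from 1.13 to 0.642 for Eif2ak3 and from 1.44 to 0.709 for Edem1. Comparisons between numbers rest on 1 library each in each group and were not tested.

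**Figure D1:**
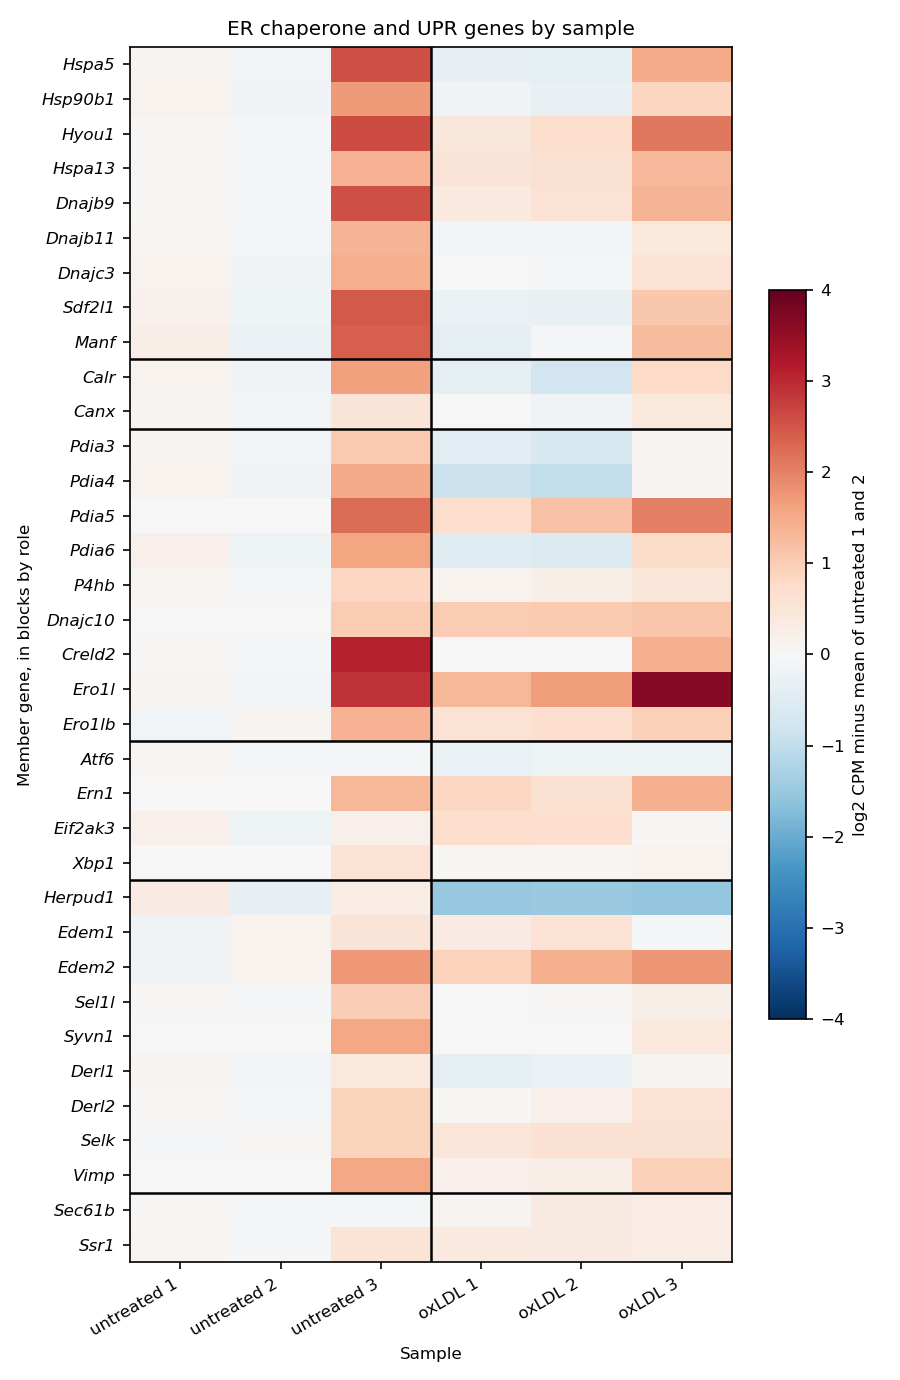
Levels of the 35 members in each of the 6 samples, as log2 CPM minus the mean log2 CPM of untreated samples 1 and 2, with horizontal lines between roles and a vertical line between groups. Untreated sample 3 is red for most chaperones and disulfide enzymes, and Herpud1 is blue in all 3 oxLDL samples.

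By role, the untreated median was 5.12-fold for the HSP70 and HSP90 group, 2.84-fold for the disulfide enzymes, 2.25-fold for the 2 lectin chaperones and 1.84-fold for the degradation genes. Single genes ranged widely within a role. Creld2, an ER protein with disulfide isomerase activity, stood in untreated sample 3 at 8.39-fold the mean of untreated samples 1 and 2. In oxLDL sample 3 it stood at 2.68-fold the mean of oxLDL samples 1 and 2. Ero1l, the oxidase that recharges protein disulfide isomerase (now named Ero1a), stood at 7.41-fold and 4.36-fold these means. The related oxidase Ero1lb stood at 2.64-fold and 1.24-fold. For Hyou1, a nucleotide exchange factor of BiP, the values were 6.07 and 2.88, and for Dnajb9, a BiP co-chaperone, 6.03 and 1.83. The 9 chaperones of the HSP70 and HSP90 type and their cofactors were all highest in library 3 in both groups. At the other end, Atf6 (0.951-fold in untreated cells), Sec61b (0.975) and Eif2ak3 (1.13) were close to the level of samples 1 and 2. The median was 1.32-fold for the 4 sensors and factors, among which Ern1 reached 2.51-fold, and 1.22-fold for the 2 translocation genes. Among searched promoters, the 9 genes with ERSE had a median of 2.94-fold (1.42 to 8.39) and the 21 without it 2.04-fold (0.975 to 7.41), ranges that overlap widely.

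**Figure D2:**
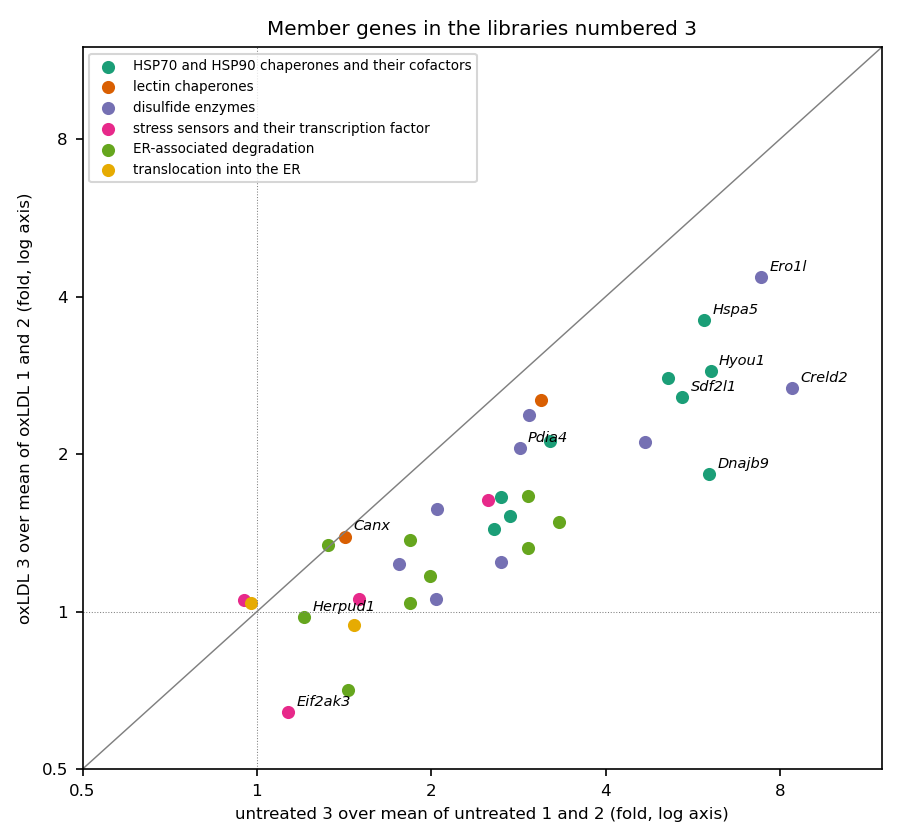
Each point is a member, placed by the ratio of the library numbered 3 to the mean of libraries 1 and 2 in untreated cells (horizontal, log axis) and in oxLDL-treated cells (vertical, log axis), coloured by role. In 32 of 35 genes the point lies below the diagonal, with Creld2 at 8.39 and 2.68.

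A list of 19 regulators and PERK outputs, none of them members, was mixed in this respect. The library numbered 3 was highest in both groups for 13 of the 19. Untreated sample 3 lay more than 2-fold above the mean of untreated samples 1 and 2 in 8. The median over the 19 was 1.84-fold, with a range of 0.724 to 14.4. Sesn2, a stress-induced gene, was at 1.44-fold, Ppp1r15b, a relative of Ppp1r15a, at 1.46-fold and Eif2s1, which encodes the substrate of PERK, at 1.08-fold, while the 3 with the largest gaps follow. Ddit3, which encodes the factor CHOP, measured 32.6, 44.3 and 554 CPM without treatment and 42.1, 58.8 and 299 CPM after oxLDL, in the order of the numbers. Trib3, a pseudokinase induced by ATF4 and CHOP, measured 16.7, 18.2 and 194 CPM and then 40.9, 57.9 and 187 CPM. Ppp1r15a (GADD34), which reverses the translational block, measured 22.5, 24.7 and 275 CPM and then 52.7, 64.9 and 246 CPM. The libraries numbered 3 were above both others in each group for these genes, which were chosen for description by the size of that gap. Markers of cell types were also summed by sample. Summed CPM of 8 macrophage markers was 35496, 26999 and 12857 in untreated samples 1, 2 and 3 and 15997, 9034 and 11183 with oxLDL. Sample 3 was thus lowest among untreated samples but lay between samples 1 and 2 with oxLDL. Most of that sum came from Lyz2 (19294, 13520 and 5204 CPM untreated) and Emr1 (9153, 6570 and 3088 CPM). Both were lowest in untreated sample 3, as were Csf1r (2165, 2535 and 1194 CPM) and Itgam (3165, 2088 and 1127 CPM). So were Mertk (54.3, 80.9 and 14.7 CPM) and Cd14 (557, 596 and 454 CPM). The remaining markers, Cd68 (740, 1096 and 1195 CPM) and Fcgr1 (367, 512 and 579 CPM), were highest in that sample. Plasma and B cell markers, from cells rich in ER, summed to at most 0.605 CPM in any sample, and fibroblast markers to at most 0.410 CPM. Markers of dendritic cells summed to 8.74 CPM in untreated sample 3 and 15.4 CPM in oxLDL sample 3, against 3.57 to 5.25 CPM in the other 4 samples, mostly from Ccr7. Neutrophil and precursor markers summed to 6.42 to 21.2 CPM untreated and 1.13 to 3.90 CPM with oxLDL, with T and NK cell markers at most at 0.289 CPM and mast cell markers at most at 1.16 CPM. Pdgfra and Tpsb2 had 0 counts in all samples. Their part in the result was not tested, and in bulk RNA fewer cells of a type and less RNA per cell cannot be told apart.

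The comparison of oxLDL with untreated cells asked which of these genes differ after the exposure. It was matched by number, with edgeR's quasi-likelihood test and the replicate number as a block, and p-values were adjusted over all genes tested. Of the 35 members 2 fell and 0 rose: Herpud1, a scaffold of the degradation machinery, and Pdia4, a disulfide isomerase. Over all genes tested 5.89% passed, 1.91% higher and 3.98% lower, so the members' count of 2 was near that background. Without the block 0 members and 0 of 11400 genes passed, while 1 member, Herpud1, and 14.7% of all genes had an unadjusted p under 0.05. With the block that unadjusted threshold was met by 9 members and by 29% of all genes. DESeq2 with the block called 7 members, 1 higher and 6 lower, against 15% of the genes it tested. Leaving out pair 1 or pair 2 ended both calls (0 genes of any kind passed).

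Without pair 3, 16 of the 35 members passed (45.7%), 11 higher and 5 lower with oxLDL, against 29.9% of all genes tested in that fit, 14% higher and 15.8% lower. That fit rests on 2 pairs, so its spread is that between pairs 1 and 2. Pair 3 was left out because of the members' own values, so the members' share cannot be weighed against that of all genes. With pair 1 or pair 2 left out instead, 0 members passed. The same limits hold for each value without pair 3 given below. The members that rose were Hyou1, Hspa13, Dnajb9, Dnajc10, Ero1l, Ero1lb, Ern1, Eif2ak3, Edem1, Edem2 and Selk. Those that fell were Calr, Pdia3, Pdia4, Pdia6 and Herpud1. The median log2 ratio over the members was 0.01, 0.17 and -0.49 in pairs 1, 2 and 3, where the medians over all genes tested were 0.01, 0.01 and -0.01. A positive ratio was found for 18 members in pair 1, for 23 in pair 2 and for 5 in pair 3. Of the 35 members, 17 had the same sign in all 3 pairs, 5 higher and 12 lower with oxLDL. Over the 11400 genes tested 53.4% did, 3005 higher and 3081 lower. In pairs 1 and 2 the set was thus divided between higher and lower genes, while most were lower in pair 3.

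**Figure D3:**
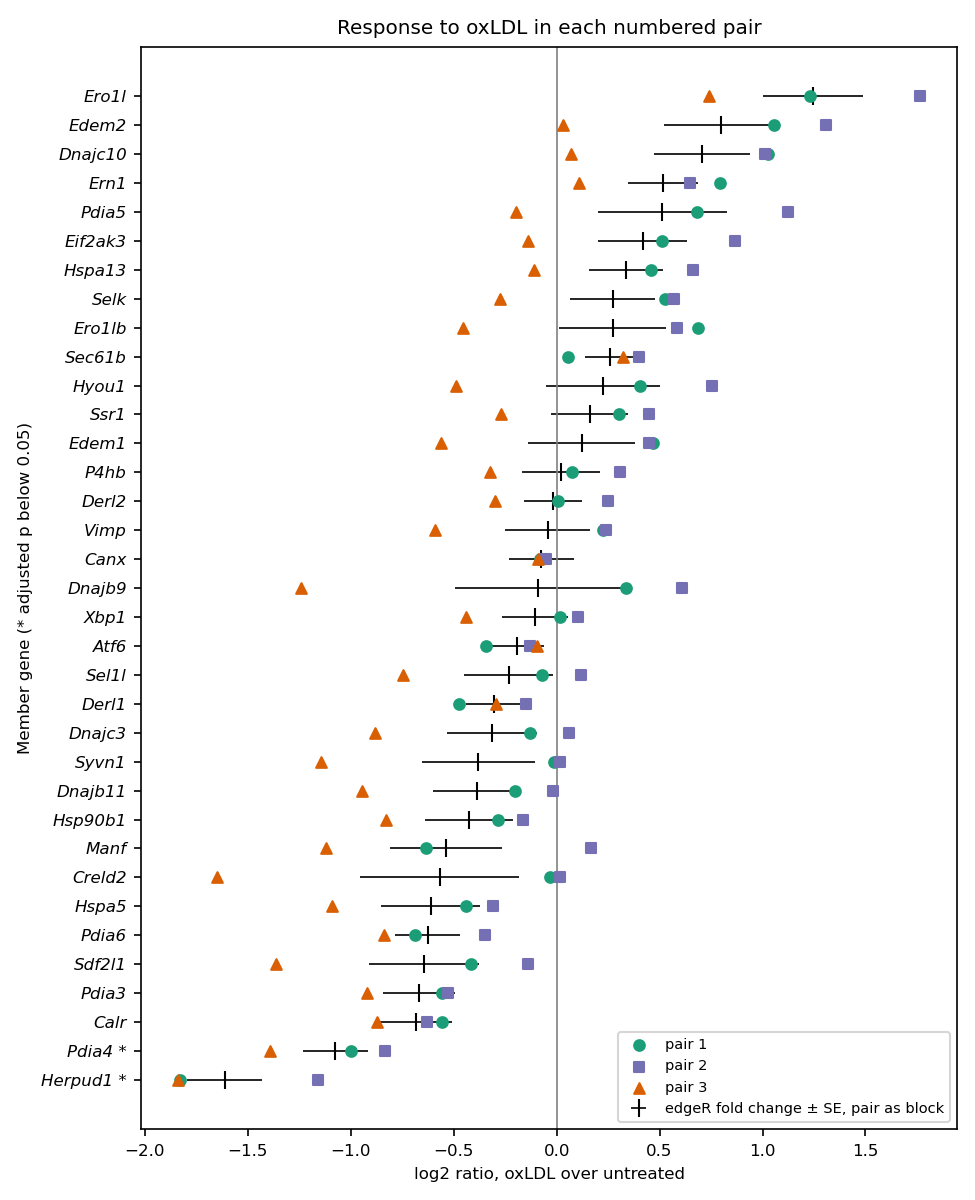
Log2 ratio of oxLDL over untreated for each member in pairs 1 (circles), 2 (squares) and 3 (triangles), with the edgeR fold change and its SE as a black bar, ordered by fold change. Triangles lie left of the other marks for most genes, and Herpud1 and Pdia4, marked with an asterisk, are below 0 in all 3 pairs.

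Herpud1 showed the clearest difference between the groups. Its level was 189, 120 and 186 CPM without treatment and 53.1, 53.7 and 52.0 CPM with oxLDL. The groups did not overlap, and the 3 treated samples were nearly equal. The log2 fold change was -1.61 ± 0.18 (SE; edgeR adjusted p = 0.0287 blocked and 0.0718 unblocked), a level 3.06-fold higher in untreated cells. The pair ratios were -1.83, -1.16 and -1.84 on the log2 scale. It also passed without pair 3 (edgeR adjusted p = 0.00674). Herpud1 was among 3 members whose groups did not overlap, with Atf6 lower and Sec61b higher, and 21.1% of all genes tested had such groups.

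The chaperone BiP (Hspa5), which binds unfolded chains and holds the sensors inactive, measured 1009, 884 and 5605 CPM without treatment and 744, 715 and 2632 CPM with oxLDL. Each treated sample lay below its numbered partner, but the groups overlapped because both libraries numbered 3 exceeded all others. Its log2 fold change was -0.61 ± 0.24 and missed the threshold (edgeR adjusted p = 0.179, and 0.112 without pair 3), while DESeq2 with the block called it (adjusted p = 0.0424). Hsp90b1 (GRP94), the ER form of HSP90 and a chaperone of Toll-like receptors and integrins, measured 975, 802 and 2854 CPM and then 800, 717 and 1605 CPM. It did not pass (-0.43 ± 0.22, edgeR adjusted p = 0.263, and -0.23 ± 0.14 without pair 3, adjusted p = 0.295). It had the same shape as BiP, lower in each pair and highest in library 3.

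None of the other 7 chaperone cofactors passed with all pairs, and they did not share a direction in pairs 1 and 2. Hyou1 (log2 ratios of 0.41, 0.76 and -0.49 in pairs 1, 2 and 3), Hspa13, an atypical HSP70 (0.46, 0.66 and -0.11), and Dnajb9 (0.34, 0.61 and -1.24) were higher in pairs 1 and 2 and lower in pair 3. These were the 3 that rose without pair 3. Dnajb11 and Dnajc3, J-domain partners of BiP, and Sdf2l1, which binds with Dnajb11, had log2 fold changes of -0.39 ± 0.21, -0.32 ± 0.22 and -0.64 ± 0.27. Manf, a secreted ER-resident survival factor, had -0.54 ± 0.27. For these 4 genes the ratios ran from -1.36 to -0.88 in pair 3 and from -0.63 to 0.17 in pairs 1 and 2.

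The lectin chaperones were lower in every pair, though by unequal amounts. Calreticulin (Calr), a soluble lectin and calcium store, measured 1018, 826 and 2849 CPM untreated and 692, 535 and 1558 CPM with oxLDL. With all pairs its change of -0.68 ± 0.18 missed the threshold (edgeR adjusted p = 0.0878), but it passed without pair 3 (-0.59 ± 0.14, adjusted p = 0.0314) and in DESeq2 with the block (adjusted p = 0.000612). Calnexin (Canx), its membrane-bound counterpart, was nearly level at -0.07 ± 0.16, with pair ratios between -0.09 and -0.05, and had the value -0.07 ± 0.14 without pair 3.

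Among the 9 disulfide enzymes Pdia4 fell, and 5 had a positive and 4 a negative log2 fold change. Pdia4 (ERp72) measured 184, 150 and 474 CPM untreated and 91.8, 84.2 and 181 CPM with oxLDL. Every treated sample was below its numbered partner, while the groups overlapped. The log2 fold change was -1.08 ± 0.16 (edgeR adjusted p = 0.0376 blocked and 0.386 unblocked), and -0.92 ± 0.11 without pair 3 (adjusted p = 0.00485). Pdia3 (ERp57), which works with the lectin chaperones and helps load MHC class I, and Pdia6, which also acts on IRE1, had values of -0.67 ± 0.18 and -0.63 ± 0.16 that missed the threshold (edgeR adjusted p = 0.0882 and 0.0827). Both were lower in all 3 pairs and fell without pair 3. DESeq2 with the block called both (adjusted p = 0.00221 and 0.00917). The founding isomerase P4hb was level (0.02 ± 0.19, and 0.19 ± 0.14 without pair 3).

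Ero1l, whose product passes electrons from the isomerases to oxygen, measured 112, 96.6 and 773 CPM without treatment and 263, 329 and 1289 CPM with oxLDL. It was higher in each treated sample than in its partner, with log2 ratios of 1.23, 1.76 and 0.74, yet untreated sample 3 exceeded oxLDL samples 1 and 2. Its log2 fold change of 1.24 ± 0.24 was the highest of the set and missed the threshold (edgeR adjusted p = 0.0562 blocked and 0.717 unblocked). It passed without pair 3 (edgeR adjusted p = 0.00360), in limma-voom with the block (adjusted p = 0.0356) and in DESeq2 with the block (adjusted p = 3.10e-05). Dnajc10 (ERdj5), a reductase that opens disulfides before degradation, measured 76.8, 79.2 and 159 CPM and then 157, 160 and 167 CPM. With oxLDL the 3 samples came to one level, that of untreated sample 3, and the change of 0.71 ± 0.23 missed the threshold (edgeR adjusted p = 0.135, and 0.00308 without pair 3). Ero1lb, the second oxidase (0.27 ± 0.26), Pdia5 (0.51 ± 0.31), at 39 to 192 counts the least abundant member, and Creld2 (-0.57 ± 0.39) did not pass. Creld2 measured 20.4, 19.5 and 167 CPM untreated and 20.0, 19.8 and 53.2 CPM with oxLDL, level in pairs 1 and 2 (edgeR adjusted p = 0.971 without pair 3). Genes other than Herpud1, Pdia4, Hspa5, Hsp90b1, Sec61b and the 4 sensors and factors were given by sample after their values had been seen.

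**Figure D4:**
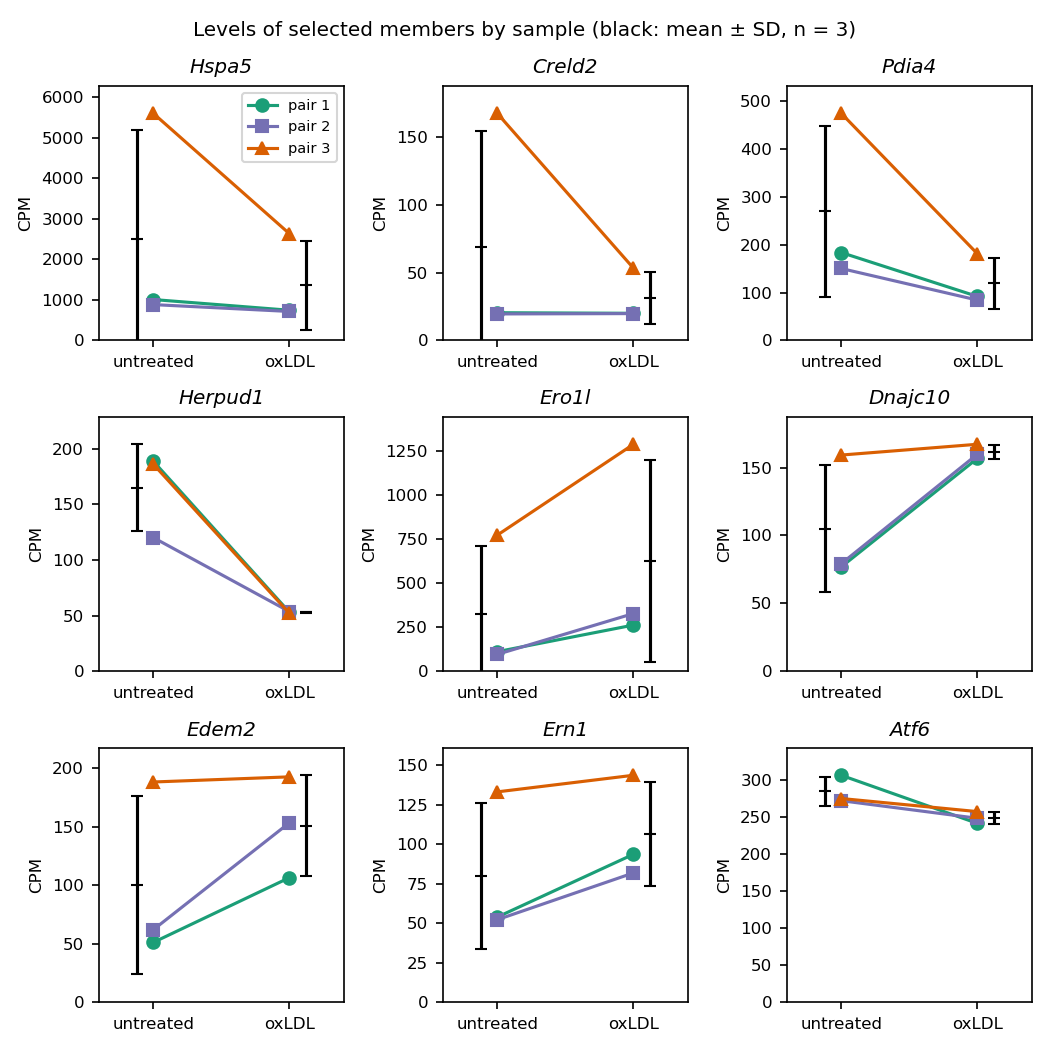
CPM of 9 members in untreated and oxLDL-treated samples, with a line joining samples of the same number and black bars for the mean ± SD of each group (n = 3, cut at 0 where they reach below it). Herpud1 falls to about 53 CPM in all treated samples, and Dnajc10 and Edem2 are higher with oxLDL in pairs 1 and 2 but nearly level in pair 3.

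None of the 4 sensors and factors passed with all pairs. Ern1, the kinase and nuclease IRE1, measured 53.9, 52.3 and 133 CPM untreated and 93.6, 81.8 and 144 CPM with oxLDL. It was higher in each pair, and its change of 0.52 ± 0.17 missed the threshold (edgeR adjusted p = 0.131), but it passed without pair 3 (0.72 ± 0.11, adjusted p = 0.00896). Eif2ak3, the kinase PERK, measured 30.4, 23.0 and 30.2 CPM untreated and 43.5, 42.1 and 27.5 CPM with oxLDL. It was higher with oxLDL in pairs 1 and 2 and lower in pair 3, whose treated sample was the lowest of its group (0.42 ± 0.22, edgeR adjusted p = 0.275, and 0.0194 without pair 3). Atf6 measured 307, 273 and 276 CPM untreated and 242, 249 and 258 CPM with oxLDL. Its groups did not overlap, but the change of -0.19 ± 0.13 missed the threshold (edgeR adjusted p = 0.389), as did -0.24 ± 0.13 without pair 3 (edgeR adjusted p = 0.216). Xbp1 measured 188, 183 and 278 CPM and then 190, 197 and 205 CPM, and its change was -0.11 ± 0.16 on the log2 scale (edgeR adjusted p = 0.693, and 0.726 without pair 3). Gene-level counts do not separate its spliced and unspliced messages, cleaved from uncleaved ATF6, or active from inactive kinases.

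Apart from Herpud1, the genes of ER-associated degradation did not pass with all pairs. Edem2, which starts the trimming of mannose that marks misfolded glycoproteins, measured 51.1, 61.9 and 188 CPM untreated and 106, 153 and 192 CPM with oxLDL. Like Dnajc10 it was higher in pairs 1 and 2 and level in pair 3 (0.80 ± 0.28, edgeR adjusted p = 0.151, and 0.00288 without pair 3). Edem1, a related lectin-like protein (0.12 ± 0.26), and Selk, the selenoprotein now named Selenok (0.27 ± 0.21), also rose without pair 3. The ubiquitin ligase Syvn1 (HRD1) and its partner Sel1l had values of -0.38 ± 0.27 and -0.23 ± 0.22, with pair 1 and 2 ratios between -0.07 and 0.12 and pair 3 ratios of -1.15 and -0.74. Derl1 (-0.30 ± 0.14), Derl2 (-0.02 ± 0.14) and the selenoprotein Vimp, now Selenos (-0.04 ± 0.20), of the export channel and its anchor, did not pass. RSEM gave Derl2 fractional counts in 6 samples and Ssr1 in 4, so part of their reads was divided between genes. Of the genes for translocation into the ER, Sec61b, a subunit of the channel, measured 35.2, 33.0 and 33.3 CPM untreated and 36.6, 43.5 and 41.5 CPM with oxLDL. All treated samples were above all untreated ones, by a small margin (0.26 ± 0.12, edgeR adjusted p = 0.234, and 0.270 without pair 3). Ssr1, of the complex next to the channel, had 0.16 ± 0.19 and did not pass.

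Among 95 other ER genes on 5 lists, 91 were tested, of which 2 fell and 0 rose (background 5.89%). The median log2 fold change was 0.10 for them, -0.09 for the members and 0.01 for all genes tested. Erp29, a chaperone related to the isomerases, measured 205, 184 and 133 CPM untreated and 141, 117 and 78.6 CPM with oxLDL, and fell in each pair (-0.65 ± 0.11, edgeR adjusted p = 0.0485, and 0.0158 without pair 3). Nupr1, a stress-induced chromatin protein, measured 22.9, 23.0 and 144 CPM untreated and 13.0, 14.4 and 66.1 CPM with oxLDL, and fell in each pair (-0.88 ± 0.13, edgeR adjusted p = 0.0393, and 0.0154 without pair 3). By list, 0 of 15 tested genes of N-glycosylation and the lectin cycle passed, 1 of 23 other folding enzymes, 0 of 17 other degradation genes, 0 of 17 genes of the translocon and signal peptidase, and 1 of 19 regulators and PERK outputs. Atf4 (0.47 ± 0.23), Trib3 (0.96 ± 0.37) and Ppp1r15a (0.81 ± 0.35) did not pass with all pairs and rose without pair 3, while Ddit3 (-0.04 ± 0.31) passed in neither fit. Without pair 3, 16 of these other genes rose and 7 fell (25.3% of those tested, against 29.9% of all genes). Among them the library numbered 3 was highest in both groups in 49 of 91 (53.8%), and its untreated median was 1.39-fold, below the 2.64-fold of the members.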

How the data were processed

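Poly(A) RNA of 6 mouse samples was sequenced. The authors deposited expected counts from RSEM, per the file's name, and a signal table of TMM-scaled CPM. The submitters' processing notes list Bowtie2 2.1.0, RSEM 1.2.15, edgeR and the human build hg19, although the symbols are mouse. The strand setting and annotation are not given in the sources used here. Recovered reads of the deposited signal table were whole in 100% of values (tolerance 0.005), and 99.9% equalled the rounded expected counts. The count test on them called 672 genes.

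Expected counts were rounded, filtered with filterByExpr (minimum count 10, minimum total 15) and scaled by TMM. CPM values use these factors and are close to the deposited signal (ratios of 0.991 to 1.01). The test was edgeR 4.0.16 (R 4.3.3), quasi-likelihood with robust estimation, with the replicate number as a block because the comparison was set as matched by number. Benjamini-Hochberg adjusted p below 0.05 over 11400 genes counted as passed. Same-numbered samples deviated together from their group means (r = 0.66, 0.45 and 0.70 across genes), although untreated sample 2 and oxLDL sample 1 gave 0.63. Over the members that mismatched combination gave 0.84, against 0.80, 0.82 and 0.87 for samples numbered 1, 2 and 3. The values set number 3 apart and do not tell whether numbers 1 and 2 mark true pairs. In every blocked fit, leaving out 1 library removes its pair. SE is the fold change over the root of F. Pair ratios are differences of log2 CPM with prior count 2. The test was tried on simulated counts. Alternatives were no block, DESeq2 1.42.0, limma-voom (limma 3.58.1), RLE factors, no filter, and each pair left out. The planned count of protein tail motifs was not run. Members, lists and the blocked design were chosen with earlier results of these data known. Values by sample were to be given for members that passed, had groups that did not overlap, or were Hspa5, Hsp90b1, a sensor or Xbp1, and of the other lists for at most 5 genes per direction that passed. Adgre1 was read under its older symbol Emr1. Jchain was read as Igj, and Fam8a1 and Ly6g were not analysed here.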

Additional observations from a re-analysis of the deposited data

How the results depend on the processing

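With no replicate block, 0 genes passed in edgeR: 0 of all genes (1674 at an unadjusted p under 0.05), 0 members (1) and 0 other ER genes (4). DESeq2 with the block called 1856 genes, 7 members and 5 other ER genes. Leaving out each pair in turn gave 0 to 3446 genes, 0 to 16 members and 0 to 23 other ER genes, the upper ends without pair 3 and 0 without pair 1 or pair 2. The cause was not tested. Limma-voom called 926 genes and 3 members, RLE factors 689 and 2, and no filter 791 and 3, each with both members called in the blocked edgeR fit, and recovered reads, tried after the data had been seen, 672 and 2. Reversed signs were found with no replicate block for Hyou1 (-0.14) and P4hb (-0.027). With a pair left out, values ran from -0.043 to 0.58 for Hyou1, -0.46 to 0.47 for Dnajb9, -0.12 to 0.19 for P4hb, -0.21 to 0.060 for Xbp1, -0.063 to 0.46 for Edem1, -0.41 to 0.021 for Sel1l, -0.15 to 0.13 for Derl2 and -0.19 to 0.23 for Vimp. Herpud1 ran from -1.84 to -1.50 and Pdia4 from -1.20 to -0.92.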
